A study of Mus musculus with 18 samples.

Results

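The genes described here are 49 cell cycle and DNA replication genes in the ileal epithelium of suckling mice. They were listed by function, but with earlier results of these data known, so their counts describe the list and are no independent test. They are split into genes of G1/S and S phase, which prepare and copy the genome, and genes of G2 and mitosis, which divide it. On the array, 47 of the 49 had a probe that the platform annotation names; Mki67 and Ccnb1 had none. A gene was kept when a probe was detected, at a detection p under 0.05, in at least 3 of the 18 arrays, and its probe of highest mean stood for it. This left 45 genes, 26 of G1/S and S phase and 19 of mitosis, out of 12804 named genes and 16835 features tested in all. Ccnb2 and Bub1 did not reach that detection.

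Specific pathogen-free pups of the outbred CD-1 stock, male and female, received 1 orogastric gavage of 50 uL at 11 days of age. It held sterile PBS, 100000000 cfu of Lactobacillus reuteri DSM 17938 in PBS, or the same dose of L. reuteri ATCC PTA 6475, another strain of that lactic acid bacterium. Epithelial cells were cut by laser from 24 sections of the last 4 cm of the ileum of each pup 4 h or 24 h after gavage, at 11 or 12 days of age. Each of the 6 groups held 3 pups with 1 single-colour Illumina array each, and the sex of each pup is not given in the labels used here.

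The cell cycle is driven by cyclins bound to their kinases. Cyclin D with Cdk4 and cyclin E with Cdk2 release E2F factors, which switch on the genes for licensing origins, for the MCM helicase and for making nucleotides, and a later wave under Foxm1 and B-Myb supplies the kinases, checkpoint proteins and kinetochore parts of mitosis. In the small intestine, dividing cells sit in the crypts, while the villus is covered by cells that have left the cycle.

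The gene classes were set by role and not by promoter letters. Promoters of some of these genes carry short motifs known from the control described above, and 3 that do are printed as examples. They are RefSeq sequences of GRCm38.p6, 5′ to 3′ on the gene's strand, from 250 bases before to 50 bases after the annotated start, with capitals marking any match to the motifs below. Mcm3 encodes a helicase subunit (chr1:20820263-20820562, minus strand), Plk1 a mitotic kinase (chr7:122159185-122159484, plus strand) and Bub1b a spindle checkpoint kinase (chr2:118597961-118598260, plus strand).
Mcm3: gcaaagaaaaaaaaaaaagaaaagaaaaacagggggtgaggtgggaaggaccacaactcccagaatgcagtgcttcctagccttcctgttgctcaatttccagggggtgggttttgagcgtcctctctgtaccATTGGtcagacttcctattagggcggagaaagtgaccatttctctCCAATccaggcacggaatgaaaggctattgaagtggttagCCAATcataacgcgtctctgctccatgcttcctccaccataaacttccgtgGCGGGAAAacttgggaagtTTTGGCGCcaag
Plk1: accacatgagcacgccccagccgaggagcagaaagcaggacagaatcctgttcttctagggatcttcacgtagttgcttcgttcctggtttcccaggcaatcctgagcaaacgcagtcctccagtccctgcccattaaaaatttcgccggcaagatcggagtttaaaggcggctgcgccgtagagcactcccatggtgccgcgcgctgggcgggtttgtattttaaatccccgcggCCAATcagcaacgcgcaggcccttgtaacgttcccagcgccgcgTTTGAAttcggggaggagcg
Bub1b: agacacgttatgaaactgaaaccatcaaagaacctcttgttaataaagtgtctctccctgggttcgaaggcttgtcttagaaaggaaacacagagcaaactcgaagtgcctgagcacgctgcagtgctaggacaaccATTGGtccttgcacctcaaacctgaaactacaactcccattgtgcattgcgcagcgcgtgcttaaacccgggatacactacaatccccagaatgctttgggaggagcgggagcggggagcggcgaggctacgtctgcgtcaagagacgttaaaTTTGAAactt

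In Mcm3 the capitals are 2 E2F words and 3 CCAAT words; in Plk1 and in Bub1b they are 1 CCAAT word and 1 TTTGAA word each, with no overlap between motifs. E2F words were TTTCCCGC, TTTCGCGC, TTTGCCGC and TTTGGCGC, the word of the cell cycle homology region was TTTGAA, and all were read on both strands. RefSeq promoters were matched for 35 of the 45 genes, 39 promoters in all. An E2F word stood in 9 of 25 promoters of G1/S and S phase genes (36.0%), in 1 of 14 of mitosis genes (7.14%) and in 2.26% of all 32851 promoters. TTTGAA showed the opposite split, with 3 of 25 (12.0%) against 11 of 14 (78.6%), beside 17.9% of all promoters. CCAAT was found in 48.0% and 71.4% of the gene classes and in 37.4% of all promoters. These matches describe letters in this window only.

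Array-wide mean signals before normalisation ranged from 210.3 to 459.7. The lowest were those of replicates 2 and 3 of the ATCC PTA 6475 pups at 24 h, at 210.3 and 261.5. The median standard deviation of a gene between pups of a group was 0.227 on the log2 scale. All 9 epithelial markers listed, led by Krt8, Krt18 and Krt19, were detected on all 18 arrays. Markers of other cells were detected too: the smooth muscle gene Acta2 had a mean log2 signal of 14.97 and the matrix gene Dcn 13.30, and all 6 smooth muscle and all 10 fibroblast markers were measured. Of 12 crypt stem cell markers 10 were measured, among them Lgr5 and Olfm4. In limma fitted to all 18 arrays without a block for the replicate number, 0 of the 16835 features passed an adjusted p of 0.05 in any of 9 comparisons. Every difference below is therefore a difference of means that did not pass in that fit, and the number of arrays limits its precision.

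Mean log2 signals over all pups describe the probes that stand for each gene, and signals of different probes give no order of transcript amounts. Of the 45 genes, 42 were detected on all 18 arrays. Among the G1/S regulators, the mean was 12.04 for the cyclin D1 gene Ccnd1, 11.08 for Cdk2, 6.07 for the cyclin E1 gene Ccne1 and 4.83 for Ccne2, the second cyclin E gene. Ccne2 was detected on 8 arrays and on no array of the DSM 17938 pups at 4 h, where it has only a bound. Among licensing and helicase genes the probes had 6.33 for Mcm3, 6.95 for the loading factor Cdc6, 10.77 for Mcm5 and 11.11 for Mcm4, all subunits or loaders of the replicative helicase. At the fork, the flap nuclease gene Fen1 had 10.09 and the ligase gene Lig1 10.04, the sliding clamp gene Pcna 6.59 and the clamp loader gene Rfc3 6.01. Probes of nucleotide supply genes had 6.83 for Rrm2, 8.74 for the thymidylate synthase gene Tyms, 9.02 for Rrm1 and 9.20 for the thymidine kinase gene Tk1.

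Among mitosis genes, the probes of the regulators had 5.58 for the cyclin A2 gene Ccna2, 7.92 for Aurkb, 9.04 for Aurka and 9.79 for Plk1. Aurka and Aurkb encode the Aurora kinases. Those of checkpoint and ubiquitin ligase genes had 5.02 for the securin gene Pttg1, detected on 12 arrays, 5.42 for Ube2c, 8.98 for Bub1b and 10.38 for Cdc20. For the kinetochore and centromere, Nuf2 had 5.63, Spc25 6.83, the survivin gene Birc5 9.46 and the centromeric histone gene Cenpa 11.66. The spindle factor gene Tpx2 had 6.13, the motor gene Kif11 7.34 and the topoisomerase gene Top2a 8.85.

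The PBS pups at 24 h had the highest mean of the 6 groups for 33 of the 45 genes, 20 of 26 of G1/S and S phase and 13 of 19 of mitosis. Over all features tested, that group was highest in 21.4%. The lowest group mean lay in the PBS pups at 4 h for 15 genes, 4 of G1/S and S phase and 11 of mitosis. It lay in the ATCC PTA 6475 pups at 4 h for 16, 11 of G1/S and S phase and 5 of mitosis. Over all features those groups were lowest in 15.3% and 15.5%. To follow single pups, each gene was set against its own mean over 18 arrays and the median deviation was taken per class. That index was 0.22 ± 0.21 (SD) for G1/S and S phase and 0.21 ± 0.34 for mitosis in the 3 PBS pups at 24 h, with single pups at 0.00, 0.41 and 0.24 and at -0.16, 0.50 and 0.29. In PBS pups at 4 h it was -0.04 ± 0.06 and -0.18 ± 0.07. The group mean at 24 h was thus carried by the pups of replicates 2 and 3, while replicate 1 lay within the range of the other groups. Replicate 2 of that group was the highest of all 18 arrays for 23 of the 45 genes, against 10.2% of all features. At the other end, replicate 1 of the ATCC PTA 6475 pups at 4 h was the lowest array for 18 genes, against 6.01% of all features, with indices of -0.35 and -0.39. The same index over marker lists was -0.32 for epithelial and 0.51 for smooth muscle markers in that pup. In replicate 2 of the PBS pups at 24 h it was 0.24 and -0.05. The part of these tissues in the cell cycle values was not tested. In bulk RNA, fewer cells of a type and less RNA per cell cannot be told apart.

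**Figure D1:**
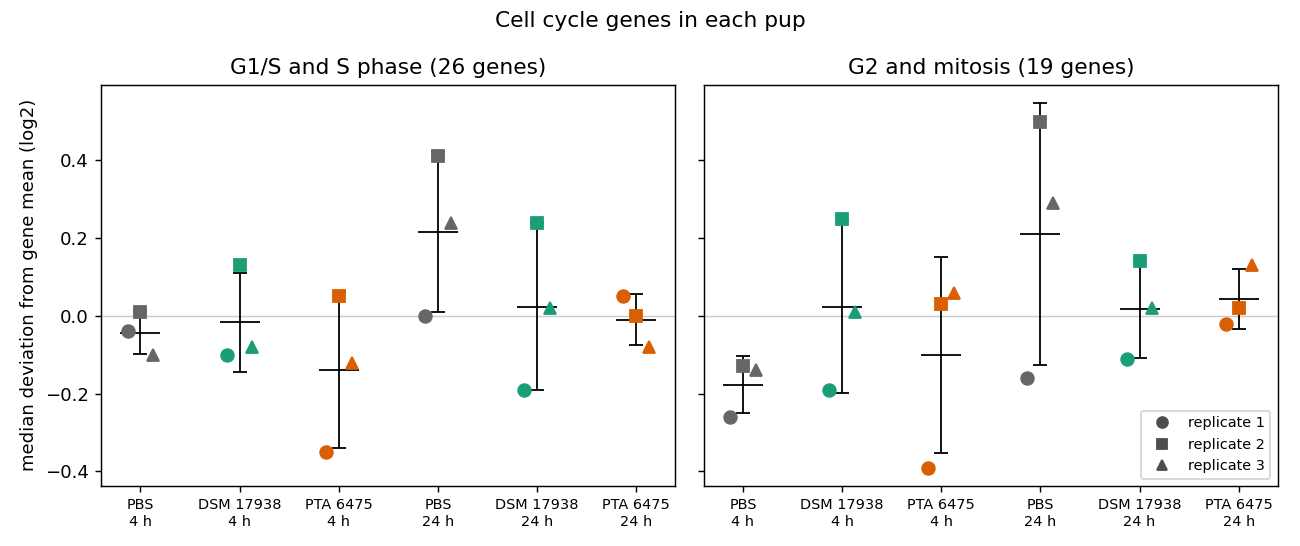
Median deviation of 26 G1/S and S phase genes (left) and 19 mitosis genes (right) from each gene's own mean, log2 scale, for each pup; symbols mark the replicate number, horizontal bars the group mean and vertical bars the SD. PBS pups at 24 h have the highest group means, 0.22 and 0.21, and the widest spread for mitosis, from -0.16 to 0.50.

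The time comparison within PBS pups, 24 h against 4 h, showed higher means at 24 h for nearly all genes. Of the G1/S and S phase genes 25 of 26 had a higher mean, with a median difference of 0.21 on the log2 scale, and of the mitosis genes 18 of 19, with a median of 0.38. Over all features the median was 0.00 and 49.4% lay above 0. Pups at 24 h were also a day older, so age and time since gavage cannot be told apart. At an unadjusted p under 0.05, 2 G1/S and S phase genes and 6 mitosis genes were higher and 0 were lower, where 1.89% of all features were higher. The 6 were Spc24, Plk1, Bub1b, Cenpa, Aurka and Aurkb, and all had an adjusted p of 0.999. Groups did not overlap for 6 of the 45 genes, all higher at 24 h, where 4.6% of all features were higher without overlap.

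Spc24, a subunit of the kinetochore complex that binds microtubules, had signals of 6.81, 6.81 and 6.96 in PBS pups at 4 h and 7.52, 7.42 and 7.23 at 24 h. Every pup at 24 h lay above every pup at 4 h, a difference of 0.53 (SE 0.12, unadjusted p = 0.000455, adjusted p = 0.999). The second Spc24 probe, detected on all 18 arrays, differed by 0.12 only. Plk1 had 9.37, 9.55 and 9.64 at 4 h and 9.74, 10.15 and 10.30 at 24 h, again without overlap, differing by 0.54 (SE 0.19, unadjusted p = 0.0125, adjusted p = 0.999). For Bub1b the signals were 8.75, 8.84 and 8.74 against 8.98, 9.61 and 9.13, differing by 0.47 (SE 0.18, unadjusted p = 0.0173, adjusted p = 0.999). This kinase holds cells before anaphase until chromosomes are attached. Among S phase genes, Tk1 differed by 0.54 (SE 0.19, unadjusted p = 0.0138, adjusted p = 0.999), and its groups overlapped. Gins2, a subunit of the helicase complex at the fork, had 7.69, 7.84 and 7.68 at 4 h and 7.92, 8.48 and 8.36 at 24 h and differed by 0.52 (SE 0.21, unadjusted p = 0.0266, adjusted p = 0.999). Cdc6 also stood apart, by 0.48 (SE 0.24, unadjusted p = 0.0625, adjusted p = 0.999). The gene with the opposite sign among mitosis genes was Pttg1, at -0.36, a dim probe detected on 2 of 3 arrays of each group. By role, kinetochore genes had a median of 0.41, mitotic regulators 0.38, nucleotide supply 0.36, licensing and helicase 0.23, the fork 0.20 and G1/S regulators 0.17. Leaving out replicate 2 of the PBS pups at 24 h lowered the class medians to 0.16 and 0.26 and the difference of Bub1b to 0.28.

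Other cell types were measured beside these genes. The 6 lymphocyte markers that passed detection had higher means at 24 h in PBS pups, with a median of 0.43, and so did all 7 myeloid markers, with a median of 0.25. Per-array means of the lymphocyte list ran from 5.57 to 5.91 at 4 h and from 5.48 to 6.68 at 24 h. Those of the myeloid list ran from 6.57 to 7.29 and from 7.08 to 8.37. Of 13 lymphocyte markers, Cd8a and Gzmb were detected on 0 arrays and Ptprc, which marks all white blood cells, on 2. Crypt stem cell markers had a median difference of -0.05, with 4 of 10 above 0, and epithelial markers 0.05. Fibroblast markers had 0.03 and smooth muscle markers 0.05. The part of any of these in the cell cycle values was not tested.

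After 24 h, DSM 17938 pups had lower means than PBS pups for most of the genes. Of the G1/S and S phase genes 22 of 26 lay below PBS, with a median of -0.20, and of the mitosis genes 17 of 19, with a median of -0.17, beside 0.01 over all features and 48.3% of features below 0. The genes lower at an unadjusted p under 0.05 were 4 of G1/S and S phase and 1 of mitosis, and 0 were higher, while 2.42% of all features were lower and 2.55% higher. They were Ccne1, Cdk4, Gins2, Tyms and Spc24, each with an adjusted p of 0.911. With the replicate number as a block, which this pair of groups allows, 6 and 3 genes were lower at that p, beside 3.45% of all features in the same fit, and 0 passed adjustment. Set against the PBS pup of the same number, 19 of the 45 genes were lower in all 3 pairs, 14 of G1/S and S phase and 5 of mitosis, beside 15% of all features. Groups did not overlap for 1 gene, Spc24, against 4.38% of all features without overlap and lower.

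Ccne1, whose cyclin starts S phase with Cdk2, had signals of 6.26, 6.65 and 6.45 in PBS pups and 5.30, 6.32 and 5.67 in DSM 17938 pups at 24 h. Replicates 1 and 3 of the strain lay below all PBS pups and replicate 2 lay among them, so the groups overlapped, but each strain pup lay below the PBS pup of its own number. The difference was -0.69 (SE 0.26, unadjusted p = 0.0161, adjusted p = 0.911), or 1.62-fold lower. Cdk4, the kinase of cyclin D, had 9.29, 9.63 and 9.36 against 8.26, 9.42 and 8.78. Its second strain pup was again among the PBS pups, each strain pup was below its own-numbered PBS pup, and the difference was -0.61 (SE 0.26, unadjusted p = 0.0318, adjusted p = 0.911). Ccnd1, its partner, had 12.01, 12.11 and 12.14 against 12.12, 12.09 and 12.29 and differed by 0.08 (SE 0.12, unadjusted p = 0.506, adjusted p = 0.965). Gins2 differed by -0.47 (SE 0.21, unadjusted p = 0.0394, adjusted p = 0.911) and Mcm3 by -0.55 (SE 0.27, unadjusted p = 0.0642, adjusted p = 0.911). Mcm3 signals were 6.40, 7.12 and 6.79 in PBS and 5.75, 6.75 and 6.17 with the strain, and Mcm2 signals 8.61, 9.03 and 8.72 and 8.24, 8.94 and 8.61. Both helicase genes overlapped between the groups and were lower in all 3 pairs.

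Tyms, which makes the thymidine nucleotide for DNA, had 8.71, 9.41 and 9.19 in PBS pups and 8.16, 8.91 and 8.76 in DSM 17938 pups at 24 h, a difference of -0.49 (SE 0.22, unadjusted p = 0.042, adjusted p = 0.911). Tk1 differed by -0.35 (SE 0.19, unadjusted p = 0.0866, adjusted p = 0.911). All 4 nucleotide supply genes lay below PBS, with a median of -0.33, and so did all 5 fork genes, with a median of -0.15. Pcna had 6.59, 7.15 and 7.09 against 5.98, 6.95 and 6.90 and its groups overlapped. In mitosis, Spc24 had 7.52, 7.42 and 7.23 in PBS pups and 6.91, 6.80 and 6.95 in DSM 17938 pups. Every strain pup lay below every PBS pup, and the difference was -0.50 (SE 0.12, unadjusted p = 0.000791, adjusted p = 0.911), the smallest p of the 45 genes in this comparison. Cdk1, the kinase that starts mitosis, had 8.57, 9.18 and 8.97 against 8.27, 8.78 and 8.51, a difference of -0.39 (SE 0.21, unadjusted p = 0.082, adjusted p = 0.911). Aurkb differed by -0.37 (SE 0.24, unadjusted p = 0.144, adjusted p = 0.911), Plk1 by -0.28 (SE 0.19, unadjusted p = 0.16, adjusted p = 0.911), the ubiquitin-conjugating enzyme gene Ube2c by -0.33 (SE 0.28, unadjusted p = 0.252, adjusted p = 0.927) and Bub1b by -0.20 (SE 0.18, unadjusted p = 0.28, adjusted p = 0.929). Top2a, which untangles sister chromosomes, had 8.75, 9.49 and 9.14 against 8.53, 9.41 and 8.58, with overlap. By their chosen probes, Tyms, Pcna, Cdk1 and Top2a were also lower in all 3 pairs. Other probes went the opposite way for Cdk1, at 0.27, and for Top2a, at 0.06 and 0.28. Those of Tyms gave -0.80, -0.22 and -0.06, and that of Cdk4 gave -0.19 beside -0.61. In this comparison 4 of 21 genes with further probes had at least 1 of the opposite sign.

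The class medians for DSM 17938 at 24 h rested in part on single pups. Without replicate 1 of the strain the G1/S and S phase median was -0.06, and without replicate 2 of the PBS pups the mitosis median was -0.04, with 13 of 19 genes below 0. Single genes moved too: without replicate 1 of the strain, Cdk4 stood at -0.33, Mcm3 at -0.31, Tyms at -0.27, Gins2 at -0.26 and Aurkb at -0.18. Without replicate 2 of the PBS pups, Cdk1 stood at -0.25, Tk1 at -0.22, Ube2c at -0.11 and Bub1b at -0.01, and without replicate 3 of them Plk1 at -0.17. Within replicate numbers the G1/S and S phase medians were -0.22, -0.20 and -0.14 and those of mitosis 0.05, -0.33 and -0.23. Crypt stem cell markers had a median of 0.02 and epithelial markers -0.01 in the same comparison. Fibroblast markers had 0.10 and smooth muscle markers 0.07. Lymphocyte markers had -0.38, with 1 of 6 above 0, and myeloid markers -0.31, with 1 of 7 above 0; their per-array means in DSM 17938 pups ran from 5.60 to 6.24 and from 6.67 to 7.13. The part of these cells was not tested.

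ATCC PTA 6475 pups at 24 h also had lower means than the same PBS pups. Of the G1/S and S phase genes 20 of 26 lay below PBS, with a median of -0.23, and of the mitosis genes 14 of 19, with a median of -0.19, beside 0.02 over all features and 47.6% below 0. At an unadjusted p under 0.05, 6 G1/S and S phase genes and 1 mitosis gene were lower and 1 was higher. Across all features that share was 15.1%, with 7.48% lower and 7.59% higher, so this comparison had many small p-values outside the cell cycle too. Groups did not overlap for 10 genes that were lower and 1 that was higher, beside 10.6% and 10.8% of all features. The lowest adjusted p of the 45 genes was 0.157. With the replicate number as a block, 7 G1/S and S phase genes and 4 mitosis genes were lower at an unadjusted p under 0.05. In the same fit 8.89% of all features were lower at that p, and 246 features passed adjustment in limma. Gins2 was among them, with an adjusted p of 0.0274 in that fit. Same-numbered pups of these groups correlated at 0.24, 0.04 and 0.46. Not every pair was over 0.1, the rule used for setting the block beside other results, so this call rests on a block that the rule did not allow here.

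Cdk4 had signals of 9.29, 9.63 and 9.36 in PBS pups and 8.88, 8.81 and 8.03 in ATCC PTA 6475 pups. Every strain pup lay below every PBS pup, and the difference of -0.85 (SE 0.26, unadjusted p = 0.00448, adjusted p = 0.157), 1.8-fold lower, was the largest decrease among the 45 genes here. Cdk2 stood on the other side, with 10.95, 10.84 and 11.12 in PBS pups and 11.19, 11.27 and 11.44 in strain pups. Its groups did not overlap either, and the difference was 0.33 (SE 0.13, unadjusted p = 0.0225, adjusted p = 0.254). Ccne1 had 6.21, 6.04 and 6.07 in strain pups, all just below the PBS pups, and differed by -0.35 (SE 0.26, unadjusted p = 0.192, adjusted p = 0.565). Ccnd1 had 12.02, 12.26 and 12.28 and differed by 0.10 (SE 0.12, unadjusted p = 0.407, adjusted p = 0.744). The signs of these differences were mixed among the G1/S kinases and their cyclins.

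The licensing and helicase genes lay below PBS in 10 of 11 cases, with a median of -0.20. Gins2 had 7.92, 8.48 and 8.36 in PBS pups and 7.39, 7.64 and 7.74 in ATCC PTA 6475 pups, without overlap, and differed by -0.66 (SE 0.21, unadjusted p = 0.00634, adjusted p = 0.172). Mcm3, whose promoter with 2 E2F words is printed above, had 6.29, 6.07 and 5.55 in strain pups, all below the PBS pups, and differed by -0.80 (SE 0.27, unadjusted p = 0.00995, adjusted p = 0.195), 1.74-fold lower. Mcm2 had 8.38, 8.41 and 8.28, also without overlap, and differed by -0.43 (SE 0.18, unadjusted p = 0.0282, adjusted p = 0.274). Mcm4 and Mcm5, subunits of the same ring, stood apart with smaller differences of -0.23 (SE 0.17, unadjusted p = 0.197) and -0.24 (SE 0.16, unadjusted p = 0.157). Mcm6 had overlapping groups and a difference of -0.09 by its brightest probe, while its other probes gave -0.75 and -0.58. Differences within the ring ran from -0.80 for Mcm3 to 0.47 for Mcm7, which is described with the replicate numbers, and the differences between members were not tested.

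All 4 nucleotide supply genes lay below PBS, with a median of -0.41. Tyms had 8.87, 8.56 and 8.32 in ATCC PTA 6475 pups, overlapping with PBS, and differed by -0.52 (SE 0.22, unadjusted p = 0.0326, adjusted p = 0.286). Tk1 stood apart, with a difference of -0.44 (SE 0.19, unadjusted p = 0.0366), as did Rrm2, with -0.25 (SE 0.19, unadjusted p = 0.207). At the fork the median was -0.31, and Pcna had 6.43, 6.30 and 6.77 in strain pups and -0.44 as its difference. In mitosis, Spc24 had 7.15, 7.05 and 7.18 in strain pups, all below the PBS pups, and differed by -0.27 (SE 0.12, unadjusted p = 0.0435, adjusted p = 0.314). The motor gene Kif11 differed by -0.39 (SE 0.20, unadjusted p = 0.0691, adjusted p = 0.376) and Cdk1, with 8.74, 8.50 and 8.38, by -0.36 (SE 0.21, unadjusted p = 0.0992, adjusted p = 0.433). Ube2c differed by -0.44 (SE 0.28, unadjusted p = 0.135, adjusted p = 0.49), Tpx2 by -0.36 (SE 0.24, unadjusted p = 0.157, adjusted p = 0.522) and Aurkb by -0.34 (SE 0.24, unadjusted p = 0.178, adjusted p = 0.549). Top2a had 9.10, 8.76 and 8.42 in strain pups and differed by -0.37, while its other probes gave 0.23 and 0.58, and Plk1, with 9.58, 9.89 and 10.39, differed by -0.11 (SE 0.19, unadjusted p = 0.567, adjusted p = 0.84). Groups overlapped for all of these mitosis genes but Spc24.

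**Figure D2:**
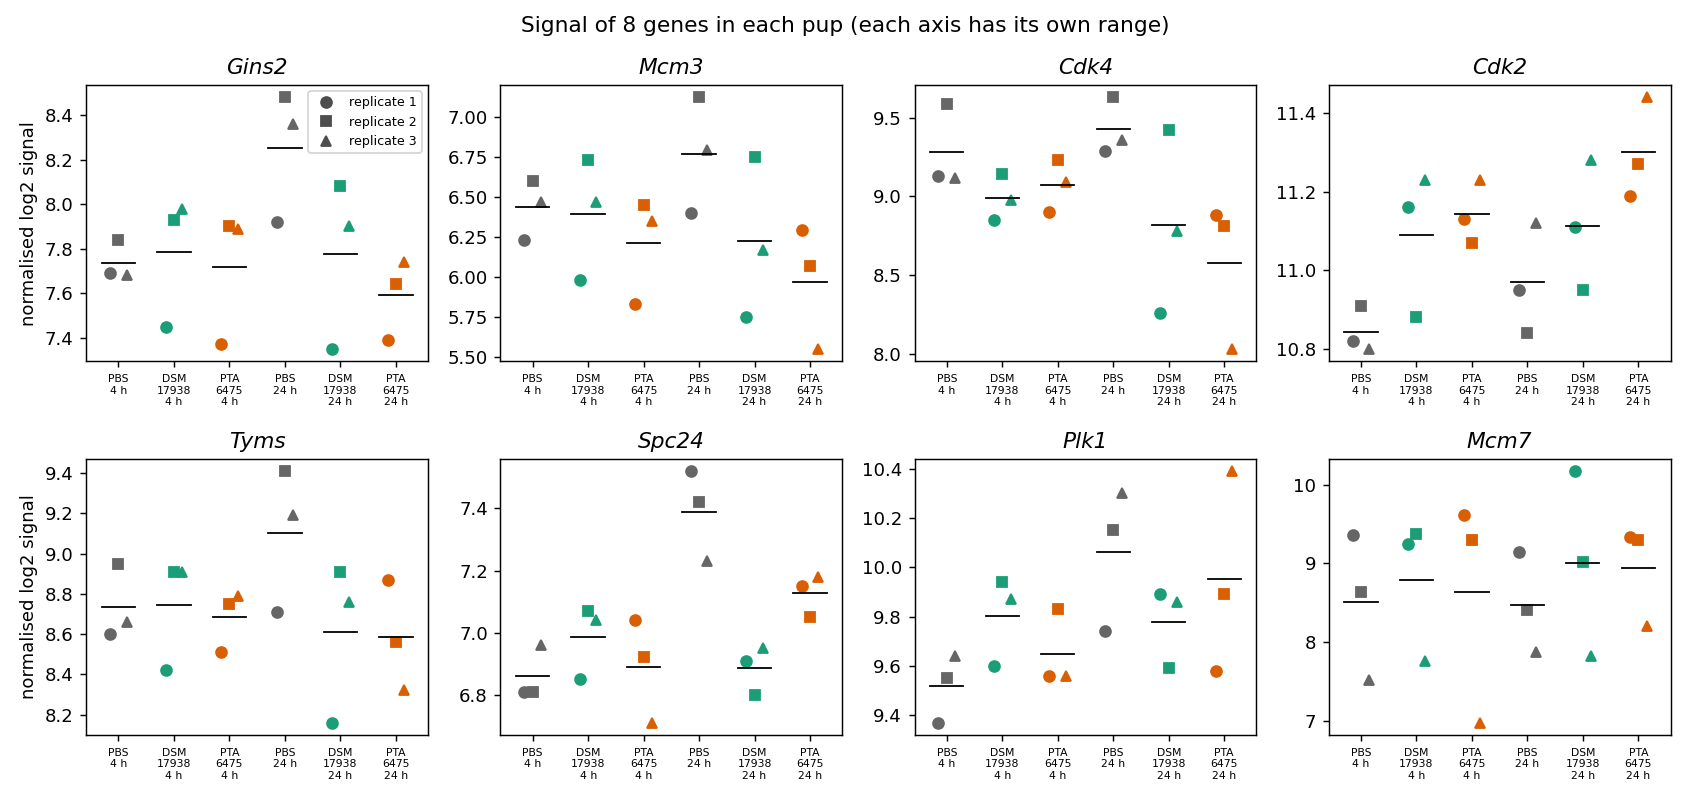
Normalised log2 signal of 8 genes in each of 18 pups, with symbols for the replicate number and lines for group means; each panel has its own vertical range. At 24 h the pups given ATCC PTA 6475 lie below all PBS pups for Gins2, Mcm3, Cdk4 and Spc24 and above them for Cdk2, while Mcm7 separates replicate 3 from the others in every group.

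Scaling the arrays to a common median in place of quantile normalisation moved the median of all features to -0.156 in this comparison and the class medians to -0.46 and -0.44, so relative to all features both classes stayed lower. Without replicate 2 of the PBS pups the mitosis median was -0.03, with 11 of 19 genes below 0, and the G1/S and S phase median -0.15. Cdk1 and Ube2c then stood at -0.22, Tpx2 at -0.20 and Aurkb at -0.17, and Kif11 stood at -0.22 without replicate 3 of the strain. Crypt stem cell markers had a median of 0.14 in the same comparison, with 8 of 10 above PBS and differences from -0.53 to 0.50. Their part in the cell cycle values was not tested. Myeloid markers had a median of -0.36, with 1 of 7 above 0 and per-array means of 6.66 to 7.38 in strain pups. Fibroblast markers had 0.23, with 7 of 10 above 0, and smooth muscle markers 0.12, with 4 of 6 above 0. By the index per pup, replicate 3 of the strain, the lowest strain pup for Cdk4 and Mcm3, stood at 0.66 for smooth muscle and -0.26 for epithelial markers. The part of any of these was not tested. Both strains at 24 h share their PBS pups, so their differences are not independent of each other.

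**Figure D3:**
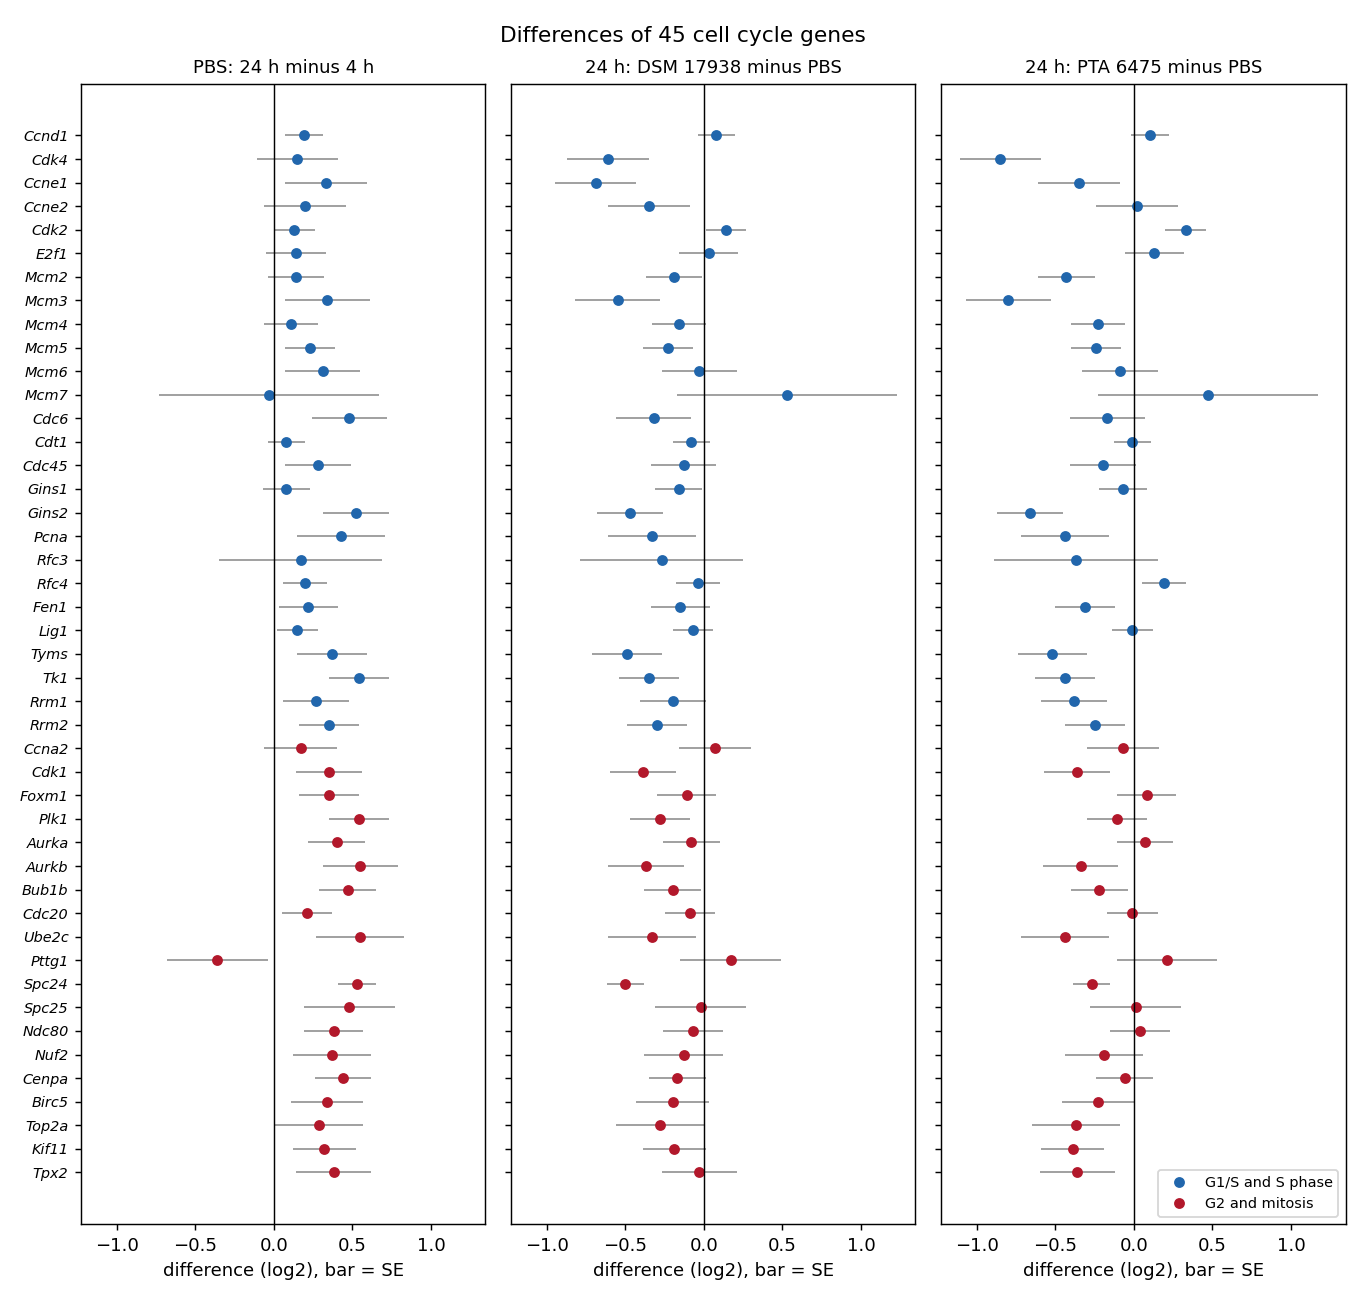
Log2 differences of 45 genes, ordered by role, for PBS at 24 h minus 4 h (left), DSM 17938 minus PBS at 24 h (middle) and ATCC PTA 6475 minus PBS at 24 h (right); dots are limma estimates, bars 1 SE, and all panels use the same PBS pups at 24 h. Nearly all dots lie right of 0 on the left (43 of 45) and most lie left of 0 in the others (39 and 34 of 45).

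At 4 h the strains were set against the PBS pups of that time. With DSM 17938, 17 of 19 mitosis genes had a higher mean than PBS, with a median of 0.17, and 16 of 26 G1/S and S phase genes, with a median of 0.03, while 51.3% of all features lay above 0. No gene of either class had an unadjusted p under 0.05, beside 3.34% of all features. Groups did not overlap for 1 gene, Bub1b, beside 4.56% of all features without overlap and higher. Cenpa, which marks the site of the kinetochore on the chromosome, had 11.24, 11.51 and 11.41 in PBS pups and 11.47, 11.93 and 11.74 with the strain. Its groups overlapped and it differed by 0.32 (SE 0.18, unadjusted p = 0.085, adjusted p = 1). Aurka differed by 0.29 (SE 0.18, unadjusted p = 0.117), Plk1 by 0.28 (SE 0.19, unadjusted p = 0.167), the kinetochore gene Ndc80 by 0.25 (SE 0.19, unadjusted p = 0.203), Bub1b by 0.23 (SE 0.18, unadjusted p = 0.213) and Foxm1 by 0.24 (SE 0.19, unadjusted p = 0.216). Bub1b had 8.75, 8.84 and 8.74 in PBS and 8.87, 9.25 and 8.90 in strain pups, Plk1 9.60, 9.94 and 9.87 and Spc24 6.85, 7.07 and 7.04 in strain pups. With single pups left out, the mitosis median ran from 0.09 to 0.24 and that of G1/S and S phase from -0.06 to 0.06. Without replicate 2 of the strain, Aurka stood at 0.15, Foxm1 at 0.12 and Bub1b at 0.11, and without replicate 1 of the PBS pups Ndc80 at 0.12. Crypt stem cell markers lay above PBS in 8 of 10 cases, with a median of 0.24 and per-array means of 8.15 to 8.69 in PBS and 8.57 to 8.68 in strain pups. Epithelial markers did so in 8 of 9, with a median of 0.20. Fibroblast markers had a median of 0.10, with 6 of 10 above PBS, and all 6 smooth muscle markers lay below PBS, with -0.06. The part of any of these in the mitosis genes was not tested.

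Among S phase genes at 4 h, Cdk2 had the smallest p with both strains. Its signals were 10.82, 10.91 and 10.80 in PBS pups, 11.16, 10.88 and 11.23 with DSM 17938 and 11.13, 11.07 and 11.23 with ATCC PTA 6475. With DSM 17938 its groups overlapped and it differed by 0.25 (SE 0.13, unadjusted p = 0.073, adjusted p = 1). With ATCC PTA 6475 all pups lay above PBS, and the difference was 0.30 (SE 0.13, unadjusted p = 0.0344, adjusted p = 1). For DSM 17938 the next were Cdk4 at -0.29 (SE 0.26, unadjusted p = 0.275), the clamp loader gene Rfc4 at 0.09 (SE 0.14, unadjusted p = 0.507), E2f1, which encodes an E2F activator, at 0.12 (SE 0.19, unadjusted p = 0.524), and Mcm2 at 0.11 (SE 0.18, unadjusted p = 0.541). Ccne2, at -0.16 (SE 0.26, unadjusted p = 0.533), was not detected on any DSM 17938 array, so its value has no fold. Signals of the other genes with DSM 17938 were 6.59, 6.47 and 6.79 for Pcna, 5.98, 6.73 and 6.47 for Mcm3 and 8.42, 8.91 and 8.91 for Tyms. They overlapped with PBS for all 3 genes.

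With ATCC PTA 6475 at 4 h, 21 of 26 G1/S and S phase genes lay below PBS, with a median of -0.09, and 12 of 19 mitosis genes lay above, with a median of 0.03, while 49.8% of all features lay below 0 and 50.2% above. At an unadjusted p under 0.05, 1 gene was higher, Cdk2, beside 1.76% of all features, and it was higher without overlap, as were 3.56% of all features. Gins1, partner of Gins2, had 7.86, 7.69 and 7.94 in PBS pups and 7.38, 7.54 and 7.61 with the strain, and differed by -0.32 (SE 0.15, unadjusted p = 0.0546, adjusted p = 1). It was the only gene lower without overlap, beside 4.13% of all features. Rrm2, for the ribonucleotide reductase that makes deoxynucleotides, differed by -0.37 (SE 0.19, unadjusted p = 0.0763), the licensing factor gene Cdt1 by -0.20 (SE 0.12, unadjusted p = 0.111), Mcm5 by -0.16 (SE 0.16, unadjusted p = 0.32) and Cdc6 by -0.21 (SE 0.24, unadjusted p = 0.389). In mitosis Aurka had 8.65, 8.91 and 8.70 in PBS pups and 8.67, 9.15 and 9.14 with the strain, and differed by 0.24 (SE 0.18, unadjusted p = 0.196, adjusted p = 1). Cenpa differed by 0.21 (SE 0.18, unadjusted p = 0.248), Foxm1 by 0.15 (SE 0.19, unadjusted p = 0.45), Plk1 by 0.13 (SE 0.19, unadjusted p = 0.521), Pttg1 by -0.20 (SE 0.32, unadjusted p = 0.541) and Top2a by -0.17 (SE 0.28, unadjusted p = 0.561). Groups overlapped for each of these mitosis genes. Replicate 1 of the strain set the S phase median: without it the median was 0.01, with 13 of 26 genes below 0. The mitosis median ran from -0.07 to 0.17 when single pups were left out, and without replicate 2 of the strain Aurka stood at 0.15 and Cenpa at 0.10. Under median scaling the mitosis median was -0.09 and that of all features -0.107. The 6 lymphocyte markers had a median of 0.80, all above PBS, with per-array means of 5.78 to 7.21 in strain pups, and 8 of 9 epithelial markers lay below PBS, with a median of -0.14 and per-array means of 10.25 to 10.42 in strain pups against 10.37 to 10.69. All 6 smooth muscle markers lay above PBS, with a median of 0.12, and 8 of 10 fibroblast markers, with 0.24. The part of any of these lists was not tested.

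For completeness at 4 h, Ccne1 had 6.15, 6.37 and 5.86 in PBS pups, 5.83, 6.59 and 5.82 with DSM 17938 and 5.52, 6.26 and 5.94 with ATCC PTA 6475. Cdk4 had 9.13, 9.59 and 9.12, 8.85, 9.14 and 8.98 and 8.90, 9.23 and 9.09 in the same order, and Ccnd1 11.80, 11.93 and 11.97, 11.99, 11.92 and 11.84 and 11.87, 12.20 and 11.92. All 3 regulators overlapped between the groups. Mcm2 had 8.65, 8.77 and 8.51, 8.60, 8.95 and 8.72 and 8.35, 8.87 and 8.50, and Top2a 8.60, 9.19 and 8.72, 8.59, 9.04 and 8.98 and 8.15, 8.88 and 8.98. Cdk1 had 8.28, 8.93 and 8.46, 8.60, 8.87 and 8.70 and 8.25, 8.79 and 8.82. These genes overlapped as well, and the lowest pup of the ATCC PTA 6475 group was replicate 1 for all 3.

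**Figure D4:**
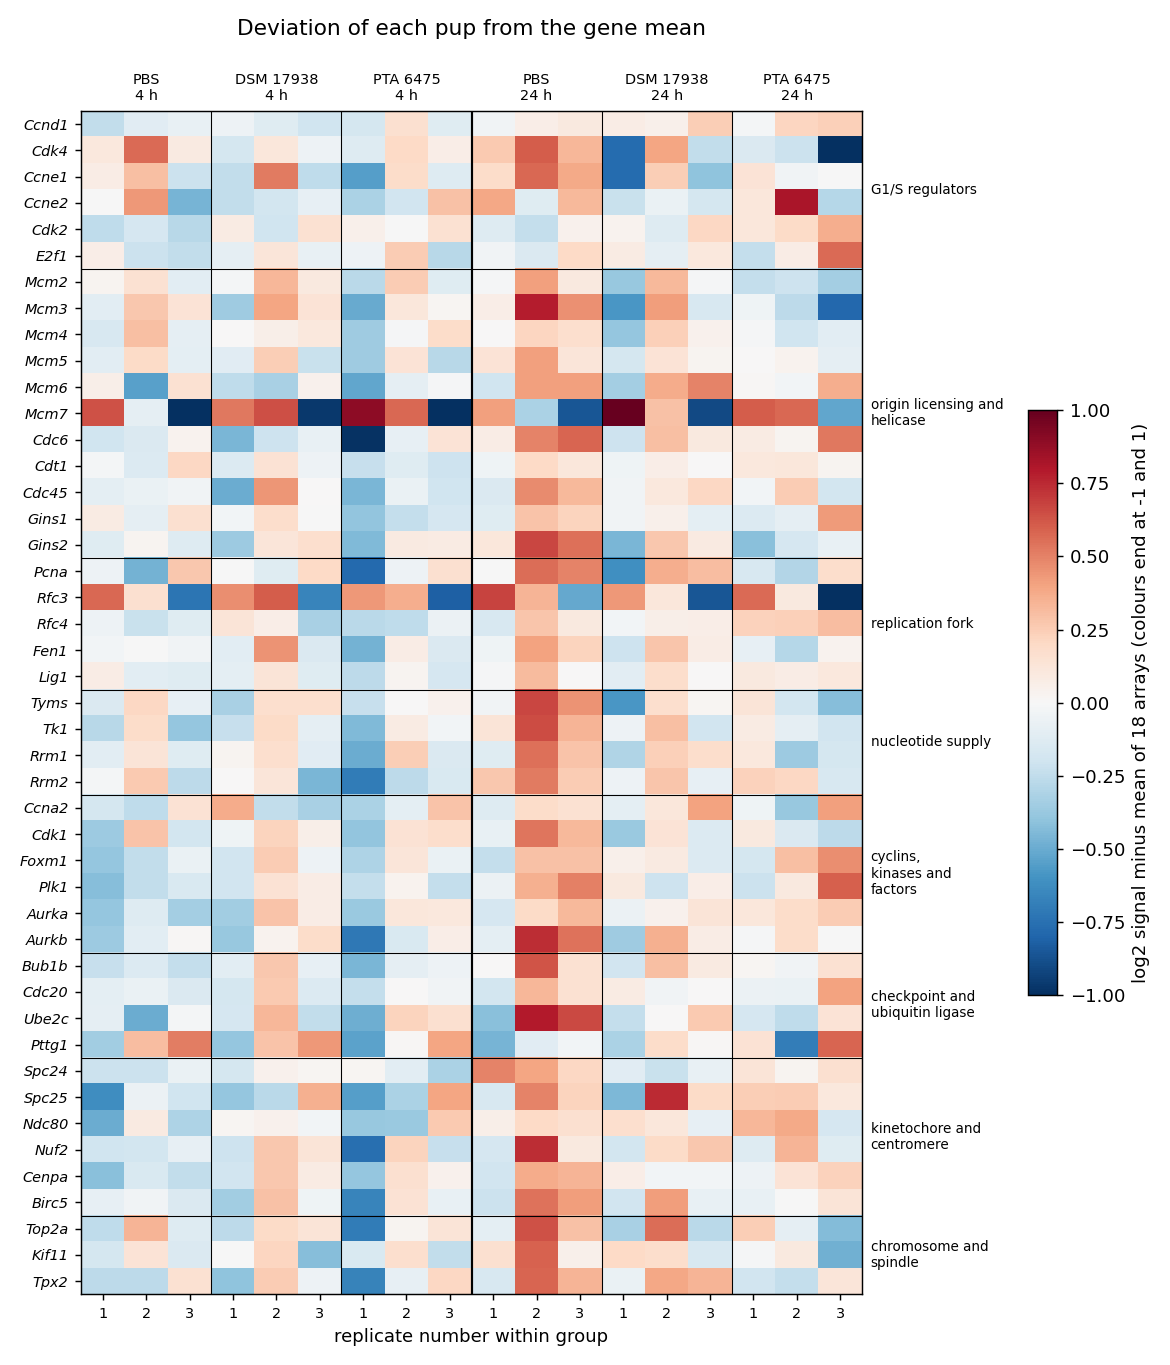
Log2 signal of 45 genes (rows, by role) in 18 pups (columns, by group and replicate number) as deviation from each gene's mean; red is above, blue below, and colours end at -1 and 1. Replicate 2 of the PBS pups at 24 h is red in most rows (highest array for 23 genes) and replicate 1 of the ATCC PTA 6475 pups at 4 h blue (lowest for 18), while the rows of Mcm7 and Rfc3 follow the replicate number.

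Strain against strain, ATCC PTA 6475 lay below DSM 17938 at 4 h for 22 of 26 G1/S and S phase genes, with a median of -0.14, and 18 of 19 mitosis genes, with a median of -0.11. Of all features 51.5% lay below 0. No gene had an unadjusted p under 0.05, beside 3.38% of all features. With the replicate number as a block, 1 S phase gene was lower at that p, beside 2.06% of all features in the same fit. In all 3 pairs of same-numbered pups 16 of the 45 genes were lower, beside 15.5% of all features. Groups did not overlap for Gins1 alone, which differed by -0.32 (SE 0.15, unadjusted p = 0.0578, adjusted p = 1), beside 3.96% of all features. Cdt1 differed by -0.17 (SE 0.12, unadjusted p = 0.169), Fen1 by -0.25 (SE 0.19, unadjusted p = 0.197), Nuf2 by -0.32 (SE 0.25, unadjusted p = 0.218), Bub1b by -0.22 (SE 0.18, unadjusted p = 0.223) and Ndc80 by -0.17 (SE 0.19, unadjusted p = 0.375). Without replicate 1 of the ATCC PTA 6475 pups the medians were 0.01 and 0.05, and without replicate 2 of the DSM 17938 pups -0.02 and -0.05. Leaving out that ATCC PTA 6475 pup put Bub1b at -0.09, Nuf2 at -0.07 and Ndc80 at -0.06, and leaving out that DSM 17938 pup put Cdt1 at -0.09 and Fen1 at -0.06. All 9 epithelial markers lay below DSM 17938 too, with a median of -0.41 and per-array means of 10.25 to 10.42 against 10.66 to 10.98. The 6 lymphocyte markers lay above, with a median of 0.83. All 6 smooth muscle markers lay above as well, with a median of 0.31, and 8 of 10 fibroblast markers, with 0.12. The part of these lists was not tested.

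At 24 h the strains had medians of -0.04 and 0.03 for ATCC PTA 6475 less DSM 17938, and 15 of 26 and 8 of 19 genes were lower with ATCC PTA 6475, where 48.7% of all features were. There were 0 genes at an unadjusted p under 0.05, beside 4% of all features. Spc24 stood higher with ATCC PTA 6475 without overlap, by 0.23 (SE 0.12, unadjusted p = 0.0722, adjusted p = 1), though its second probe gave -0.14, and so did Rfc4, by 0.23 (SE 0.14, unadjusted p = 0.12, adjusted p = 1), beside 4.13% of all features. Tpx2 differed by -0.32 (SE 0.24, unadjusted p = 0.199), Foxm1 by 0.19 (SE 0.19, unadjusted p = 0.331), Cdk2 by 0.19 (SE 0.13, unadjusted p = 0.168) and Ccne2, detected on 1 DSM 17938 and 2 ATCC PTA 6475 arrays, by 0.36 (SE 0.26, unadjusted p = 0.177). Under median scaling, which put all features at -0.166, the class medians were -0.28 and -0.19. Differences that missed the threshold do not show that the strains act alike.

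Whether a strain's difference from PBS changed between the times was tested as an interaction, and 0 features passed adjustment. For DSM 17938, 23 of 26 and 17 of 19 genes had a more negative difference at 24 h than at 4 h, with medians of -0.19 and -0.34, beside 49.1% of all features. Spc24 had the smallest p, at -0.63 (SE 0.17, unadjusted p = 0.0021, adjusted p = 1), and was the only gene of the 45 under an unadjusted 0.05, beside 1.14% of all features in that direction. Its second probe gave -0.02, so this value rests on 1 of 2 probes. Plk1 followed at -0.56 (SE 0.27, unadjusted p = 0.0555), Cenpa at -0.49 (SE 0.25, unadjusted p = 0.0668), Ccne1 at -0.65 (SE 0.36, unadjusted p = 0.0932), Gins2 at -0.52 (SE 0.30, unadjusted p = 0.0989) and Tk1 at -0.48 (SE 0.27, unadjusted p = 0.103). Other probes gave -0.61 and -0.39 for Gins2, -0.19 for Tk1 and 0.14 for Cenpa, the last detected on 5 arrays. For ATCC PTA 6475 the counts were 14 of 26 and 18 of 19, with medians of -0.05 and -0.20, beside 48.8% of all features. Gins2 was the only gene under 0.05, at -0.65 (SE 0.30, unadjusted p = 0.0459, adjusted p = 1), beside 2.08% of all features in that direction, and its other probes gave -0.87 and -0.74. Cdk4 stood at -0.64 (SE 0.37, unadjusted p = 0.0962), Tk1 at -0.48 (SE 0.27, unadjusted p = 0.103), Spc24 at -0.30 (SE 0.17, unadjusted p = 0.103), Ube2c at -0.61 (SE 0.40, unadjusted p = 0.145) and Cdk1 at -0.43 (SE 0.29, unadjusted p = 0.164). Other probes gave 0.01 for Cdk4, 0.13 for Tk1, -0.13 for Spc24 and 0.41 for Cdk1, so of these only that of Spc24 kept the sign. Between 4 h and 24 h, DSM 17938 pups had medians of 0.02 and 0.03 and ATCC PTA 6475 pups 0.15 and 0.22, where PBS pups had 0.21 and 0.38.

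Other genes of the cycle, taken from lists outside the 49, were read the same way. Those lists too were chosen with earlier results known. Of 41 further replication genes 34 were measured, and of 44 further mitosis genes 36. Between PBS pups at 24 h and 4 h, 27 of 34 and 34 of 36 lay higher, with medians of 0.15 and 0.25, beside 49.4% of all features. At an unadjusted p under 0.05, 2 and 6 of them were higher, beside 1.89% of all features, among them the checkpoint kinase gene Chek1 at 0.56 (SE 0.21, unadjusted p = 0.0172), Uhrf1, which helps copy DNA methylation, at 0.38 (SE 0.16, unadjusted p = 0.0334), and the motor genes Kif23 at 0.79 (SE 0.30, unadjusted p = 0.0185) and Kif4 at 0.41 (SE 0.15, unadjusted p = 0.0184). With DSM 17938 at 24 h, 23 of 34 and 29 of 36 lay below PBS, with medians of -0.08 and -0.07, and with ATCC PTA 6475 16 of 34 and 18 of 36, with medians of 0.02 and -0.01. Of all features 48.3% and 47.6% lay below PBS. For ATCC PTA 6475 the wider lists were thus nearly even around 0, and their difference from the 45 genes was not tested. Pola2, a subunit of the polymerase that primes DNA, lay lower with both strains, by -0.55 (SE 0.20, unadjusted p = 0.0127) and -0.48 (SE 0.20, unadjusted p = 0.0267). Pold3, a subunit of polymerase delta, lay higher with both, by 0.30 (SE 0.13, unadjusted p = 0.034) and 0.46 (SE 0.13, unadjusted p = 0.00232, adjusted p = 0.138). At an unadjusted p under 0.05, 1 of the 34 replication genes was higher and 1 lower with DSM 17938, beside 2.55% and 2.42% of all features. With ATCC PTA 6475, 3 were higher and 2 lower, beside 7.59% and 7.48%. At 4 h, 26 of 34 and 28 of 36 lay above PBS with DSM 17938, with medians of 0.11 and 0.12, led by Mcm10 at 0.41 (SE 0.16, unadjusted p = 0.023) and the checkpoint gene Zwilch at 0.50 (SE 0.24, unadjusted p = 0.0493). Of all features 51.3% lay above. In each list 1 gene had an unadjusted p under 0.05, beside 3.34% of all features in either direction. With ATCC PTA 6475 the medians were -0.04 and 0.00. Strain against strain, ATCC PTA 6475 lay below DSM 17938 at 4 h for 30 of 34 and 29 of 36, with medians of -0.12 and -0.12, and above it at 24 h for 26 of 34 and 30 of 36, with medians of 0.10 and 0.09. Of all features 51.5% lay below at 4 h and 48.7% at 24 h. Of 15 inhibitors of the cycle 14 were measured, and 12 of them lay above PBS with ATCC PTA 6475 at 4 h, with a median of 0.12, beside 50.2% of all features. The RB family gene Rbl2, at 0.34 (SE 0.15, unadjusted p = 0.042), was the only 1 of the inhibitors under an unadjusted 0.05 there, beside 1.76% of all features that were higher. The inhibitors had medians of 0.00 and 0.04 with the strains at 24 h.

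Further probes served as a check within genes, since 21 of the 45 genes had 35 other detected probes. Other probes had the same sign as the chosen probe in 30 of 35 cases for DSM 17938 at 24 h, 25 of 35 for ATCC PTA 6475 at 24 h and 30 of 35 for PBS over time. At 4 h it was 26 of 35 for DSM 17938 and 22 of 35 for ATCC PTA 6475 against PBS, and between the strains 23 of 35 at 4 h and 21 of 35 at 24 h. The other probes of Gins2 gave -0.82 and -0.76 with ATCC PTA 6475 at 24 h, beside -0.66, and those of Cdk2 gave 0.26, 0.13 and 0.22, beside 0.33. The other probe of Cdk4 gave -0.18, beside -0.85, and that of Spc24 -0.44, beside -0.27. For Cdk1 the other probe, a dim one with a mean of 5.09, went the opposite way, at 0.38 beside -0.36. Tyms had other probes at -0.44, -0.12 and 0.04. Top2a had others at 0.23 and 0.58 beside -0.37, the latter a probe with a mean of 8.26, and Mcm6 at -0.75 and -0.58 beside -0.09. In that comparison 13 of the 21 genes, Gins2, Cdk2, Cdk4, Spc24 and Mcm6 among them, had no probe of the opposite sign, and 8 had at least 1, namely Cdk1, Top2a, Tyms, Mcm7, Foxm1, Lig1, Rfc4 and Spc25. For Spc24 the second probe gave -0.30 beside -0.50 with DSM 17938 at 24 h and -0.28 beside 0.13 at 4 h. Which probe stands for a gene thus changed the sign or size of several differences.

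Mcm7 and Rfc3 followed the replicate number more than the treatment. Mcm7, another helicase subunit, had 9.14 to 10.17 in the 6 pups of replicate 1, 8.41 to 9.37 in those of replicate 2 and 6.98 to 8.21 in those of replicate 3. Rfc3 had 6.45 to 6.69, 6.11 to 6.62 and 4.75 to 5.50. In both, every replicate 3 pup lay below all others. A number apart from the others was found for 2 of 45 genes (4.44%) and 333 of 16835 features (1.98%). The other Mcm7 probe overlapped between the numbers, with 7.97 to 8.64, 8.27 to 8.76 and 7.64 to 8.35. Its differences at 24 h, -0.08 and -0.14, were opposite in sign to those of the chosen probe, 0.53 and 0.47, which were the highest of the G1/S and S phase genes in both strain comparisons at 24 h. The labels do not say what the replicate number marks. In the file headers the array identifiers run consecutively by this number, and each run holds a pup of every group.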

How the data were processed

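Gene expression was measured on 18 single-colour Illumina mouse bead arrays, 1 per pup. GenomeStudio is named in the submitters' processing notes, without a version. The deposited table holds uncorrected signal intensity for 45281 probes and a detection column, a fraction, per the file headers; 1 minus it was used as detection p. A second deposited table holds log2 values by the authors, which matched quantile-normalised uncorrected log2 signals within 0.00584435; it served as an alternative.

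Intensities were background-corrected by normexp, quantile-normalised and log2-transformed with an offset of 16 (neqc in limma 3.58.1, R 4.3.3). The detection filter asked for p under 0.05 on 3 or more arrays, which 24506 probes met, and the brightest probe stood for each gene. Symbols came from the platform annotation, updated through RefSeq, with 34885 probes naming 1 gene, 18 several and 10378 none. This gave 12804 named genes and 4031 unnamed probes. One limma fit used all 6 groups of 3 arrays, with 9 contrasts, two-sided moderated tests and Benjamini-Hochberg adjustment within each comparison at 0.05, and residual degrees of freedom of 12. All differences are log2. Differences and p-values describe the spread between pups; each array is a separate mouse, and with 3 against 3 an exact permutation test of a single gene cannot go below 0.1, so none was used. Tests were checked on simulated data. The members and gene lists were chosen with earlier results of these data known. Genes are named for the smallest unadjusted p, 6 per class for a strain against PBS and 3 per class in other comparisons, beside a set of role representatives whose values are given for every pup. Genes named for non-overlapping groups or for other probes were chosen after their values were seen, and counts over same-numbered pairs were added then too.

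Replicate numbers shared by the groups were checked for pairing: over 21 pairs, deviations from group means correlated at -0.05 to 0.51. Every pair was over 0.1 for DSM 17938 against PBS at 24 h and for the strains at 4 h, so the block fit stands beside those results. The labels do not say what the number marks, but it follows the order of the array identifiers in the file headers. Every group has a pup under each number. Alternatives changed the normalisation, background correction, filter, probe choice, arrays fitted and block, and left out single arrays. Promoters were read with Python 3.11.15. Chip, scan date and sex were not used here.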

Additional observations from a re-analysis of the deposited data

How the results depend on the processing

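With single pups left out, the number of features past an adjusted p of 0.05 in limma ranged from 0 to 10 for DSM 17938 against PBS at 4 h, 0 to 2 at 24 h, 0 to 1 at 24 h for ATCC PTA 6475, 0 to 8 and 0 to 1 between the strains at 4 h and 24 h, and 0 to 2 for PBS over time. The highest counts came without replicate 1 of the DSM 17938 pups of that time in the comparisons with 10, 8 and 2 (against PBS), and without replicate 3 of the PBS pups at 24 h for ATCC PTA 6475. It was 0 to 0 at 4 h for ATCC PTA 6475 and for both interactions. Fitting only the compared arrays called 6 features for DSM 17938 at 24 h, 1 between the strains at 24 h and 6 for PBS over time, where the full fit called 0. With the replicate block, 246 features passed for ATCC PTA 6475 at 24 h, Gins2 among them at -0.66 with an adjusted p of 0.0274. Same-numbered pups of these 2 groups correlated at 0.24, 0.04 and 0.46. Of 18 arrays, 15 correlated best with an array of their own number, a hint from the data that the number matters. The block changed no other call; for PBS over time it moved the genes higher at an unadjusted p under 0.05 from 2 to 4 and from 6 to 12, and the share of all features from 1.89% to 2.85%.

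Under median scaling the G1/S and S phase and mitosis medians were -0.46 and -0.44 at 24 h for ATCC PTA 6475 less PBS and -0.28 and -0.19 between the strains at 24 h, beside shifts of all features of -0.156 and -0.166. It also turned the sign of Rfc4 (-0.01) with DSM 17938 at 4 h, Plk1 (-0.04) with ATCC PTA 6475 at 4 h, and Foxm1 (-0.03), Rfc4 (-0.02) and Cdk2 (-0.08) between the strains at 24 h. Averaging all detected probes put Cdk1 at 0.01 with ATCC PTA 6475 at 24 h, as its second probe differs in sign. Leaving out single pups turned the sign of Ccne2 with DSM 17938 at 4 h (-0.39 to 0.06) and, with ATCC PTA 6475 at 4 h, of Pttg1 (-0.45 to 0.05), Top2a (-0.32 to 0.09) and Cdc6 (-0.44 to 0.12). The cause was not tested.

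In the other settings, 692 of 699 gene values and 122 of 126 class medians counted as unchanged. These kept direction and side of the threshold or moved by less than the spread between pups. For medians that spread was 0.16 for G1/S and S phase and 0.205 for mitosis, more than many of the medians themselves. A changed sign could thus count as unchanged. Under median scaling at 4 h, the G1/S and S phase median with DSM 17938 went from 0.03 to -0.06. That of mitosis with ATCC PTA 6475 went from 0.03 to -0.09. None of the 45 genes had an adjusted p below 0.157 in the main limma fit, so the tally is a weak check. A simulation of the 24 h comparison of ATCC PTA 6475 with PBS, with 200 of 16835 features changed, found 6% of those set to 1.5-fold, 75% of those at 2-fold and 98.5% of those at 4-fold. Its noise was independent between features and had no structure by replicate number, so these rates need not hold for the real arrays. The largest decrease among the 45 genes in the real comparison, that of Cdk4, was 1.8-fold.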
